A study of Ovis aries with 24 samples.

Results

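The small leucine-rich proteoglycans described here are keratocan (KERA), fibromodulin (FMOD), decorin (DCN), lumican (LUM) and biglycan (BGN). Their probe sets were taken by name, as every probe set whose symbol in the platform annotation is exactly KERA, FMOD, DCN, LUM or BGN. The genes themselves were chosen with earlier results of these data known. They are 5 of the 9156 gene symbols on the array and are read by 6 of its 24128 probe sets, because BGN has 2. All 6 probe sets passed the filter on dim signals and were among the 15613 probe sets tested.

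These proteins are secreted into the extracellular matrix and share a curved core of leucine-rich repeats that binds collagen fibrils and sets their spacing and thickness. Decorin and biglycan form one class of the family and carry chondroitin or dermatan sulfate chains, while fibromodulin, lumican and keratocan form another and carry keratan sulfate. In skeletal muscle they belong to the connective tissue that surrounds fibres, bundles and the insertion on tendon, and decorin and biglycan also bind growth factors of the transforming growth factor beta family.

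The study measured RNA of sheep muscle on a bovine Affymetrix GeneChip, with 24 arrays in 12 groups of 2. The callipyge mutation enlarges certain muscles after birth in lambs that inherit it from the sire only. Longissimus dorsi (LD), the long back muscle, was taken from lambs of genotype CN, the paternal heterozygote that shows the trait. It was also taken from CC, the homozygote, from NC, in which the mutation came from the dam, and from NN, the wild type. These 4 genotypes were measured at 11 to 12 weeks of age (T12) and at birth (T0, within 5 days). Supraspinatus (SS), a shoulder muscle, was taken at T12 from CN and NN lambs, and the hind limb muscles coded SM and ST (semitendinosus) from NN lambs at T12. The labels conflict on the name behind SM, so its code is kept, and some T12 labels also mention birth, so the age code of the titles was used.

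All lambs came from a Dorset/Suffolk/Rambouillet crossbred flock, and the protocol speaks of 8 males for LD, 4 in each of a pair of genotypes, whereas arrays exist for 4 genotypes. How many animals stand behind an array is therefore not known here. Both arrays of a group are labelled as technical repeats, so they were averaged to 1 group value on the log2 scale, and the p-values measure the spread between group values and not between animals. The probes were designed on bovine transcripts, so signals are compared between groups for 1 probe set and not between probe sets. The sums of marker signals do add probe sets. Each is mainly its brightest gene, THBS4 for tendon and VIM for fibroblasts, and is no measure of tissue content. Levels are MAS5 signal on a linear scale, and changes are log2 differences with the standard error (SE) of the limma fit. Array medians ran from 47.4 to 59.7, and a signal below 47.4 may not be above background. The 9 of 11 listed muscle markers that were measured were all above that level in every group. In whole tissue, fewer cells of a type and less RNA per cell cannot be told apart.

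KERA, a keratan sulfate proteoglycan best known from the cornea and also present in tendon, ran from 26.0 to 273.8 over the 24 arrays with a median of 160.1. Its group values spanned 7-fold, with the highest of 254.8 in LD of NC at T0 and the lowest of 36.4 in LD of CN at T12. When the 12 groups were put in order, the arrays of neighbouring groups failed to overlap at 3 of 11 steps. One of these was the step to the lowest group, from which the next, LD of NN at T12 with 128.0, was far removed.

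FMOD, which binds type I collagen and guides fibril growth in tendon, ran from 152.7 to 1058.1 with a median of 510.4. The highest group value was again LD of NC at T0, at 1025, and the lowest again LD of CN at T12, at 175.1, a 5.85-fold span. FMOD separated the groups more often than the other members did, with neighbours not overlapping at 7 of 11 steps. Its SD between the 2 arrays of a group was 0.159 on the log2 scale, against an SD of 0.749 among group values.

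DCN, the most widespread of the family in connective tissue, varied least, from 5932.6 to 10228.4 on single arrays. Its group values spanned 1.56-fold, from 6198 in LD of CN at T12 to 9678 in SM. The SD between paired arrays was 0.085 and that among group values 0.173.

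BGN and LUM were read less precisely. The first BGN probe set ran from 61.1 to 354.9 over the arrays and the second from 122.1 to 297.3, with SDs between paired arrays of 0.509 and 0.342. Over the 12 groups these 2 probe sets had a Pearson r of 0.777, as a description. The second is of a type that can share probes with other transcripts. LUM, which spaces collagen fibrils in cornea and skin, ran from 55.9 to 305.6. Its SD between paired arrays, 0.669, was larger than the SD among its group values, 0.392, and the arrays of neighbouring groups overlapped at all 11 steps, so differences between groups in LUM were not resolved by these arrays.

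**Figure D1:**
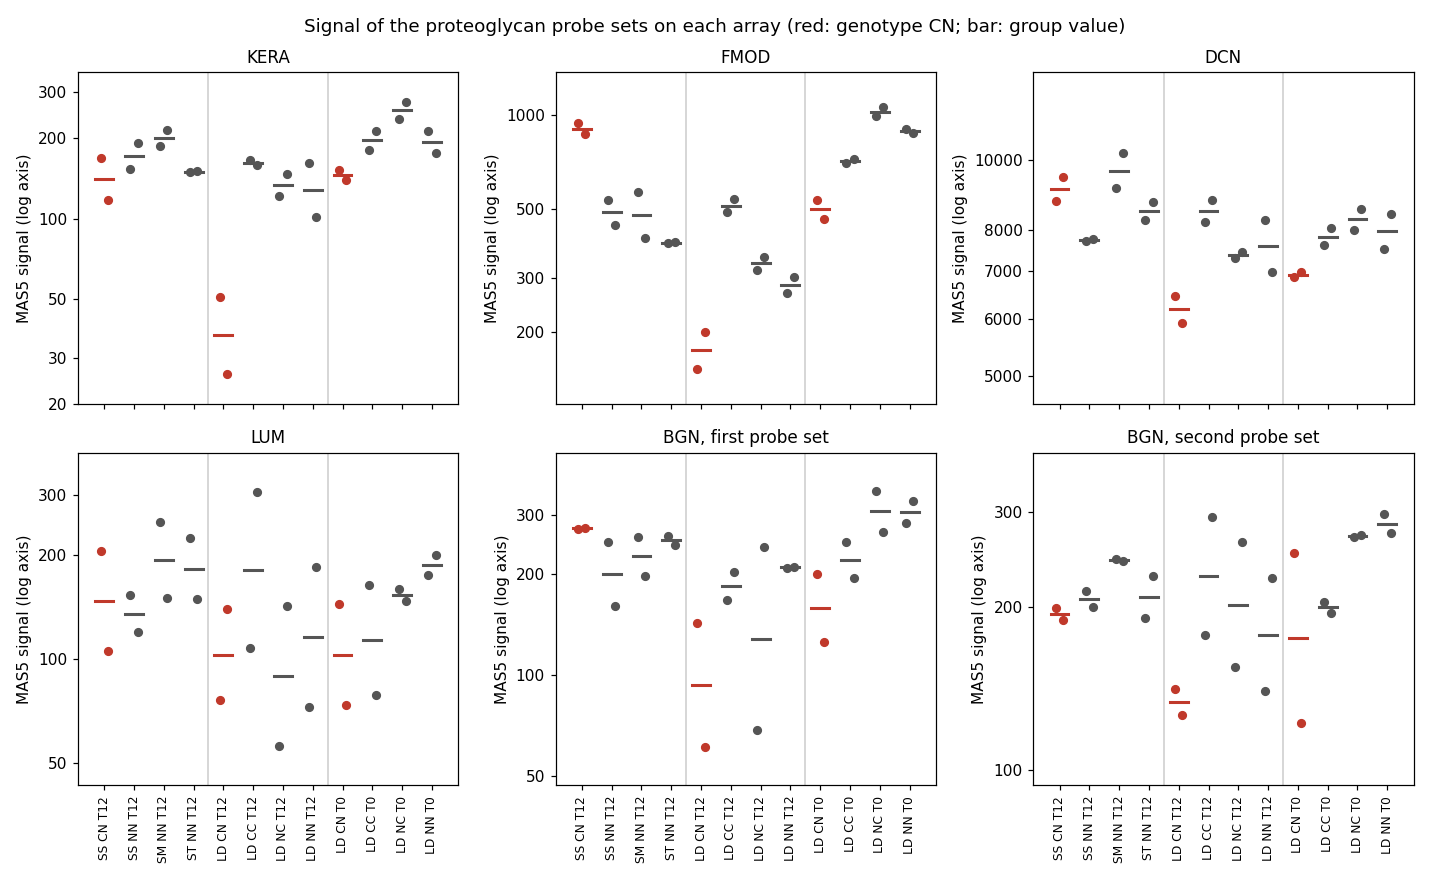
MAS5 signal (log axis) of the 6 probe sets on each of the 24 arrays, with points for single arrays, bars for group values and CN groups in red. For KERA, FMOD and DCN both CN arrays of LD lie below the 6 arrays of CC, NC and NN at T12 and again at T0.

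In LD at T12 all 6 probe sets were lower in CN than the mean of CC, NC and NN, and 1 of them, KERA, passed the test. The question was whether the muscle that enlarges in CN lambs differs from the same muscle in lambs without the trait. KERA had 50.9 and 26.0 on the CN arrays, against 165.5 and 158.3 in CC, 121.5 and 146.5 in NC, and 161.8 and 101.2 in NN. Both CN arrays lay below the other 6, and among those NN overlapped both CC and NC. KERA fell by 1.95 on the log2 scale (SE 0.27, 95% interval −2.54 to −1.35, limma adjusted p = 0.0366), which is 3.86-fold. The CN group value of 36.4 lies below the lowest array median, so the size of this change is uncertain. With all probe sets tested in this comparison, 0.179% were called.

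The call of KERA is close to the threshold. When each of the 24 arrays was dropped in turn it was lost 6 times, with adjusted p of 0.0596 to 0.0697, and without an intensity trend in the variance it was at adjusted p = 0.117. The value itself lay between −2.43 and −1.46 in these fits. The arrays whose removal ended the call were replicate 1 of LD CC T0, NC T0, NN T0, CC T12 and NN T12, and replicate 2 of LD NC T12.

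FMOD had 152.7 and 200.9 in CN, against 486.7 and 536.8 in CC, 317.2 and 350.2 in NC, and 268.6 and 302.0 in NN. The CN arrays were below all others, and CC stood above NC and NN without overlap. The log2 difference was −1.06 ± 0.30 (SE, interval −1.72 to −0.40), and with an adjusted p of 0.235 it did not pass. With CC given its own term, FMOD was at −0.82 against NC and NN (adjusted p = 0.14).

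DCN had 6474.8 and 5932.6 in CN, against 8205.5 and 8810.6 in CC, 7309.0 and 7444.7 in NC, and 8256.1 and 6978.6 in NN. Both CN arrays lay below the other 6, by a small margin from the lowest NN array. The log2 difference was −0.33 ± 0.13, with an adjusted p of 0.4.

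The first BGN probe set had 143.3 and 61.1 in CN, 167.9 and 203.2 in CC, 68.7 and 240.9 in NC and 209.0 and 211.0 in NN. Here 1 CN array and 1 NC array were low, so CN and NC overlapped. The difference was −0.87 ± 0.31 (adjusted p = 0.331). It hung on which CN array was kept, at −1.48 (adjusted p = 0.0448) without replicate 1 of LD CN T12 and −0.25 (adjusted p = 0.739) without replicate 2. The second BGN probe set was at −0.60 ± 0.26 (adjusted p = 0.481). LUM was at −0.26 ± 0.39 (adjusted p = 0.898), with an interval of −1.12 to 0.61 that leaves either direction possible. Its sign turned with CC given its own term (0.02) and without replicate 1 of LD CN T12 (0.18).

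Over the 6 probe sets the median difference was −0.73, while over all 15613 tested probe sets it was −0.05, of which 55.3% were negative. KERA, FMOD and DCN were below the other genotypes on every array, 3 of 6 probe sets, where 7.56% of all tested probe sets were. As signal relative to the mean of the other genotypes, KERA was at 25.9% in CN, FMOD at 48.0%, the BGN probe sets at 54.8% and 66.1%, DCN at 79.4% and LUM at 83.6%.

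Genes that work with these proteoglycans were examined as lists, and 0 genes of the 7 lists were called at T12. The 7 measured collagens of 10 listed were all negative, with a median of −0.45. COL1A1 and COL1A2, the chains of type I collagen, were at −0.92 ± 0.26 (adjusted p = 0.231) and −0.78 ± 0.18 (adjusted p = 0.133). On single arrays COL1A1 had 2715.4 and 2714.1 in CN, against 4145.4 to 7355.1 on the 6 other arrays. COL1A2 had 7695.9 and 6268.6 in CN, against 9400.4 to 15598.9, so both were below the other genotypes without overlap. COL1A2 passed without replicate 1 of LD CN T12 (−0.93, adjusted p = 0.0353).

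Of 13 other small leucine-rich proteoglycans 5 were measured, and 3 of these were negative (median −0.21). Osteoglycin (OGN) was at −0.24 ± 0.16, and chondroadherin (CHAD), a cartilage member of the family, was under 47.4 in all 4 genotypes, so its difference is not given. Enzymes that build the sugar chains had 8 of 14 negative with a median of −0.38, among them the sulfotransferases CHST7 at −0.83 and CHST14, which acts on dermatan sulfate, at −0.75. In the growth factor list 7 of 13 were negative (median −0.25). Myostatin (MSTN), the inhibitor of muscle growth, was at 1.19 ± 0.49 (adjusted p = 0.435) and CCN2, a matricellular target of transforming growth factor beta, at −0.45 ± 0.19.

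Receptors reported to bind decorin or biglycan had 4 of 5 negative (median −0.23), and the 2 of smallest p, IGF1R and TLR4, were dim. IGF1R had a group value of 10.46 in CN, against 58.3 in CC, 49.48 in NC and 51.51 in NN, and TLR4 had 42.75, against 97.8, 89.44 and 59.3. Both CN values are under 47.4, so the sizes of these differences are uncertain. Among proteases and their inhibitors or enhancers 7 of 9 were negative (median −0.36). PCOLCE, which enhances the trimming of procollagen, was at −0.55 ± 0.18, and the aggrecanase ADAMTS5 had 35.18 in CN, under 47.4, against 66.3 to 76.23, with a sign that turned without replicate 2 of LD CN T12. Other proteoglycans had 8 of 12 negative (median −0.15), with serglycin (SRGN) at −0.87 and perlecan (HSPG2) at −0.68. These values depended on single CN arrays. Over the 24 fits without an array PCOLCE lay between −0.86 and −0.24 (adjusted p 0.041 to 0.556), SRGN between −1.45 and −0.28 (0.041 to 0.686), HSPG2 between −1.09 and −0.27 (0.0343 to 0.657) and CHST14 between −1.15 and −0.35 (0.0676 to 0.645). The values nearest 0 came without replicate 2 of LD CN T12 for PCOLCE and SRGN and without replicate 1 for HSPG2 and CHST14, and those farthest from 0 without the other CN array.

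Markers of other tissues were read beside these values. Of 7 tendon markers 3 were measured (not SCX, MKX, CILP or CILP2) and all were negative, COMP at −1.25 ± 0.48, tenomodulin (TNMD) at −1.07 ± 0.55 and THBS4 at −0.29 ± 0.17, none passing. COMP was at −2.13 and THBS4 at −0.56 without replicate 1 of LD CN T12, and at −0.37 and −0.03 without replicate 2, while without any single array TNMD lay between −1.22 and −0.92. Their summed signal was 4679.3 and 3289.1 in CN, of which THBS4 gave 4507.3 and 3133.1. The 6 other arrays had sums of 3797.1 to 6647.3, so the groups overlapped, and COMP was under the lowest array median in CN (32.62). TNMD alone had 111.9 and 138.3 in CN, against 155.0 to 727.9. The 11 fibroblast markers summed to 9723.5 and 10442 in CN, against 11154 to 13775, without overlap, with 7 of 11 negative and a median of −0.24. VIM alone had 6798.9 and 7678 in CN, against 7717.3 to 10122.3. Of the 9 muscle markers 2 fell, slow troponin TNNT1 by 0.97 and slow myosin MYH7 by 0.89 on the log2 scale (adjusted p = 0.0366 and 0.0492). TNNT1 passed in 17 and MYH7 in 7 of the 24 fits without an array, and neither passed without the intensity trend (adjusted p = 0.217 and 0.275).

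The remaining marker lists had no calls at T12, and their medians were −0.73 for cartilage (3 of 5 negative), −0.50 for adipocyte (3 of 3), −0.35 for endothelial (6 of 6), −0.14 for smooth muscle and pericyte (4 of 5), −0.38 for immune (4 of 5), −0.34 for nerve (2 of 2) and 0.25 for red blood cell markers (2 of 4). In CN, 2 of 5 cartilage, 2 of 3 adipocyte, 1 of 2 nerve and 2 of 4 red blood cell markers were under 47.4. The medians of these lists are therefore uncertain. GAPDH is read by control probe sets at its 3′ and 5′ ends, and their log2 ratio moves with RNA quality. It was −0.033 and 0.085 on the CN arrays and 0.066 and 0.043 on those of CC, against 0.187 to 0.246 in NC and NN. The same ratio of a second control, actin, overlapped between CN and both NC and NN. It was 0.047 and 0.036 in CN, 0.093 and 0.115 in CC, 0.294 and 0.031 in NC, and 0.203 and 0.037 in NN. The part of these markers and of RNA quality in the proteoglycan values was not tested.

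**Figure D2:**
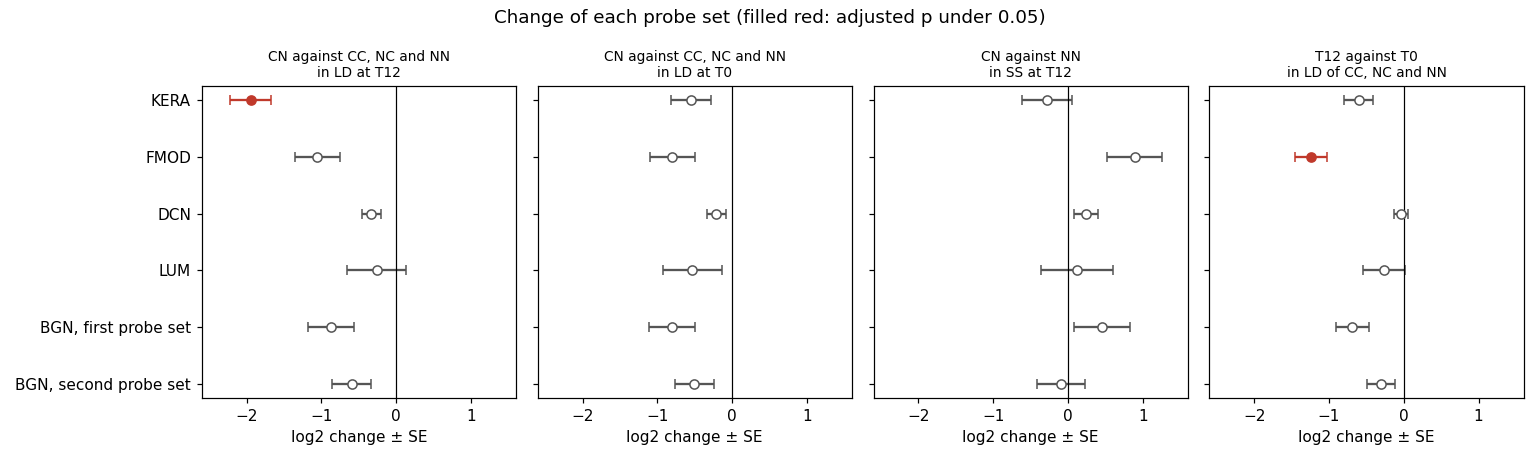
Log2 change of each probe set (points, with bars of ± 1 SE) in 4 comparisons, filled red where the adjusted p is under 0.05. KERA at −1.95 in CN at T12 and FMOD at −1.25 between ages are the points that passed.

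In newborn lambs the same 6 probe sets were again all lower in CN, with 0 calls, where 0.173% of all probe sets were called. This comparison asks whether a difference is present before the muscle enlarges. KERA had 152.3 and 139.8 in CN at T0, against 181.1 and 213.8 in CC, 237.1 and 273.8 in NC, and 213.7 and 175.9 in NN. The CN arrays were the lowest but lay close to the lowest NN array. The difference was −0.55 ± 0.27 (adjusted p = 0.482), with CN at 68.4% of the other genotypes.

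FMOD had 534.3 and 462.8 in CN at T0, against 703.4 and 720.1 in CC, 992.6 and 1058.1 in NC, and 898.9 and 874.5 in NN. All 8 arrays fell in separate groups, with CN lowest and CC next. The difference was −0.80 ± 0.30 (adjusted p = 0.314), and it was −0.94 (adjusted p = 0.0533) against NC and NN with CC given its own term. DCN had 6865.1 and 6990.8 in CN, against 7622.8 and 8043.6 in CC, 8006.9 and 8553.0 in NC, and 7529.7 and 8414.3 in NN. Both CN arrays were again below the other 6, and the difference was −0.21 ± 0.13 (adjusted p = 0.604).

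The first BGN probe set was at −0.80 ± 0.31 (adjusted p = 0.324, and −1.13 to −0.47 without single arrays), with 199.8 and 125.6 in CN, against 195.6 to 354.9 in the others. The second was at −0.51 ± 0.26 (adjusted p = 0.521), and its sign turned without replicate 2 of LD CN T0 (0.02). LUM was at −0.53 ± 0.39 (adjusted p = 0.694, and −1.02 to −0.04 without single arrays). The median over the 6 probe sets was −0.54, against −0.02 over all tested probe sets.

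KERA, FMOD and DCN were the 3 of 6 probe sets below the other genotypes on every array at T0, where 9.71% of all tested probe sets were. These 3 did so at both ages, as did 1.51% of all tested probe sets. The 7 collagens were all negative at T0 as well (median −0.46), with COL3A1 at −0.37 ± 0.13 and COL5A2 at −0.69 ± 0.27, and 0 genes of the 7 lists were called. Other members of the family had 4 of 5 negative (median −0.40), with OGN at −0.40 and PRELP at −0.47. Sugar chain enzymes had 10 of 14 negative (median −0.16), with CHST14 at −0.55 and the sulfotransferase UST at −0.49. The growth factor list had 6 of 13 negative (median 0.01), with the signal transducer SMAD3 at −1.11 and CCN2 at 0.64, which had opposite signs. SMAD3 was dim in CN (37.52) and was at −1.92 (adjusted p = 0.0416) without replicate 2 of LD CN T0 and −0.30 (adjusted p = 0.774) without replicate 1. Receptors had 1 of 5 negative (median 0.74), where TLR4 had 65.47 in CN, against 13.93 in CC, 45.95 in NC and 27.01 in NN, all 3 under 47.4. CD14 had 123.6 in CN, against 87.23 in CC, 69.43 in NC and 39.49 in NN. Proteases and their partners had 6 of 9 negative (median −0.18), with PCOLCE2 at −0.58 and the inhibitor TIMP3 at 0.46, and other proteoglycans 7 of 12 (median −0.11), with PRG4 at 0.40 and GPC3 at −0.43.

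Tendon markers at T0 were again lower in CN, without a call. TNMD was at −0.87 ± 0.55, THBS4 at −0.41 ± 0.17 and COMP at −0.55 ± 0.48, the last of which turned to 0.05 without replicate 1 of LD CN T0. The summed tendon markers were 5018.3 and 5267.7 in CN, against 6421.9 to 8517.2, without overlap. The fibroblast markers summed to 10254 and 11148 in CN, against 11091 to 13799, with overlap, and the GAPDH ratio was 0.230 and 0.225, against 0.131 to 0.307. Of the other marker lists cartilage had 5 of 5 negative (median −0.99), red blood cell 4 of 4 (−0.80), endothelial 5 of 6 (−0.47), adipocyte 3 of 3 (−0.31), smooth muscle and pericyte 4 of 5 (−0.28), muscle 8 of 9 (−0.23), immune 2 of 5 (0.06) and nerve 0 of 2 (0.26), with 0 calls. In CN, 3 of 5 cartilage and 2 of 4 red blood cell markers were under 47.4, so the medians of these lists are uncertain. The part of all these markers in the values was not tested.

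Whether the CN difference grew with age was tested as an interaction, and 0 probe sets passed (0% of all tested, with 1396 at an unadjusted p under 0.05). KERA had the largest member value, −1.40 ± 0.38 (interval −2.24 to −0.55, adjusted p = 0.326), rank 182 by p among all probe sets. The KERA group value in LD of CN at T12 was 36.4, under 47.4, so the size of its interaction is uncertain. FMOD was at −0.26 ± 0.43 and DCN at −0.12 ± 0.18. LUM was at 0.27, and the BGN probe sets at −0.07 and −0.09, each with a sign that turned in fits without single arrays. The interaction passed for no member, so the T12 and T0 differences are given side by side.

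Between birth and T12 FMOD fell in LD of the 3 genotypes without the trait, and it was the 1 probe set of 6 that passed, where 11.7% of all probe sets did. FMOD had 486.7, 536.8, 317.2, 350.2, 268.6 and 302.0 in CC, NC and NN at T12, against 703.4, 720.1, 992.6, 1058.1, 898.9 and 874.5 at T0. No T12 array reached a T0 array. The fall was 1.25 with an SE of 0.21 on the log2 scale (log2 change −1.25, interval −1.71 to −0.78, adjusted p = 0.00435), or 2.37-fold, and it passed in all 24 fits without an array but not without the intensity trend (adjusted p = 0.0691).

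The change in FMOD differed in size among genotypes, as a description with 1 value each. It was −1.51 in CN, −0.48 in CC, −1.62 in NC and −1.64 in NN. Among the genotypes without the trait, CC had both a lower birth level than NC and NN and a higher T12 level. In KERA the changes with age were −2.004 in CN, −0.28 in CC, −0.93 in NC and −0.60 in NN. The KERA value of CN at T12 was under 47.4, so the size of the CN change is uncertain.

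KERA also had no overlap between ages, with 101.2 to 165.5 at T12, against 175.9 to 273.8 at T0. Its difference of −0.60 ± 0.19 did not pass (adjusted p = 0.067). These were the 2 of 6 probe sets below on every array, as were 4.98% of all tested. The BGN probe sets were at −0.69 ± 0.22 (adjusted p = 0.0659) and −0.30 ± 0.19 (adjusted p = 0.341), and LUM at −0.27 ± 0.28. DCN was at −0.04 ± 0.09 (interval −0.24 to 0.16), the narrowest interval of the members, and its sign turned to 0.001 with quantile normalization. The first BGN probe set lay between −0.99 and −0.39 without single arrays and passed in 1 of 24 fits, that without replicate 2 of LD CC T0 (−0.75, adjusted p = 0.0451).

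Among the collagens 3 of 7 fell with age, COL1A1 by 1.49, COL12A1 by 1.21 and COL1A2 by 0.74 on the log2 scale (adjusted p = 0.000924, 0.00266 and 0.00464), while COL3A1 was at −0.01. CHAD was the 1 of 5 other family members that passed, and it fell (adjusted p = 0.0143). It had group values of 39.07, 9.525 and 40.02 in CC, NC and NN at T12, against 148.4, 144.5 and 96.14 at T0, so all T12 values are under 47.4 and the size of the fall is uncertain. In the remaining lists TGFBI, a matrix protein induced by transforming growth factor beta, fell by 1.09 (1 of 13 called). PCOLCE fell by 0.88, while the aggrecanases ADAMTS1 and ADAMTS5 rose, ADAMTS1 by 0.89 (3 of 9 called). ADAMTS5 had group values of 66.3 to 76.23 at T12, against 17.16 to 24.11 at T0, which are under 47.4, so the size of its rise is uncertain. The linker enzyme B3GAT3 fell by 1.12 (1 of 14) and the receptor TLR4 rose (1 of 5), with 59.3 to 97.8 at T12, against 13.93 to 45.95 at T0, again under 47.4.

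Of the other proteoglycans 5 of 12 passed with age. Syndecan SDC2 fell by 0.74, and glypican GPC1 and aggrecan (ACAN) fell to levels under 47.4 at T12, so their sizes are uncertain. GPC1 had 12.23 to 31.29 at T12, against 124.4 to 172.8 at T0, and ACAN had 23.23 to 36.26, against 59.91 to 81.23. In the same list SPOCK2 was higher by 1.17 and lubricin (PRG4) by 0.41. The tendon marker TNMD fell by 2.45 (adjusted p = 0.00298), with COMP at −0.997 and THBS4 at −0.29 not passing. The cartilage markers COL11A1 (log2 change −3.46) and COL2A1 (log2 change −2.55) fell beside ACAN, which is in both lists (3 of 5 called). Without the intensity trend 5 of these list genes still passed, namely ADAMTS5, GPC1, COL11A1, COL2A1 and CD3E. The calls of ACAN, PRG4 and TLR4 held in 15, 16 and 21 of the 24 fits without an array. The summed tendon markers were 3797.1 to 6647.3 at T12, against 6421.9 to 8517.2 at T0, the fibroblast sums 11154 to 13775, against 11091 to 13799, and the GAPDH ratios 0.043 to 0.246, against 0.131 to 0.307, each with overlap. The part of tendon, cartilage and RNA quality in the FMOD change was not tested. The other called markers between ages were MB, EMCN, CD3E, AIF1, TAGLN, MYH11 and ACTA2, all higher at T12, and HBB, lower. CD3E at T0 in all 3 genotypes and HBB at T12 in CC were under 47.4.

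In SS, a muscle that was sampled from CN and NN lambs alone, no probe set of the array passed between CN and NN (0% of all tested by limma, with 651 at an unadjusted p under 0.05). FMOD had 940.1 and 869.1 in CN, against 534.1 and 443.5 in NN. The CN arrays were above the NN arrays without overlap, and this is the opposite direction to LD. SS has 1 group value per genotype, so the SEs and intervals given for SS take their spread from CC, NC and NN of LD. The difference was 0.89 ± 0.37 (interval 0.08 to 1.71, adjusted p = 1).

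DCN had 8791.4 and 9475.2 in SS of CN, against 7707.6 and 7779.5 in NN, a difference of 0.24 ± 0.16. The first BGN probe set had 273.6 and 275.7 in CN, against 250.5 and 161.1 in NN, a difference of 0.45 ± 0.38. Both were above NN on every array. With FMOD these were 3 of 6 probe sets above, where 17.2% of all tested probe sets were. The second BGN probe set was the 1 of 6 below on every array, where 17.4% of all tested were, with 199.9 and 189.8 in CN, against 214.6 and 200.7 in NN (−0.09 ± 0.32). The BGN probe sets had opposite signs in SS. Their intervals, −0.38 to 1.28 for the first and −0.80 to 0.62 for the second, leave either direction possible for both.

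KERA had 169.2 and 117.7 in SS of CN, against 152.9 and 191.8 in NN, which overlap (−0.28 ± 0.33). LUM was at 0.13 ± 0.48, and its sign turned without single SS arrays (−0.36 to 0.61). The adjusted p was 1 for all 6 probe sets, and their median difference was 0.18, against −0.002 over all tested.

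The 3 measured tendon markers were all positive in SS, TNMD at 1.36 ± 0.67, COMP at 0.70 ± 0.59 and THBS4 at 0.59 ± 0.21, none passing. TNMD had 945.5 and 1004.8 in CN, against 372.7 and 386.8 in NN. Their summed signal was 7008 and 8673.3 in CN, against 4888.1 and 4890.7 in NN, and the part of tendon in the FMOD value was not tested. The GAPDH ratio was −0.027 and 0.087 in CN, against 0.024 and 0.058 in NN, so the groups overlapped in it, as they did in the fibroblast sums of 12000 and 12914, against 12624 and 12020. Cartilage markers had 4 of 5 positive (median 0.93), red blood cell 4 of 4 (1.301), muscle 7 of 9 (0.07), smooth muscle and pericyte 4 of 5 (0.20), immune 3 of 5 (0.09), endothelial 2 of 6 (−0.12), adipocyte 0 of 3 (−0.40) and nerve 0 of 2 (−1.05), with 0 calls. All 4 red blood cell markers were under 47.4 in NN, and 1 of 2 nerve markers was in each group. The medians of these 2 lists are therefore uncertain. Of the collagens 4 of 7 were positive (median 0.25), with COL12A1 at 1.01 ± 0.32 and COL1A1 at 0.46 ± 0.32. Other members of the family had 3 of 5 positive (median 0.33), with PRELP at 0.68 ± 0.35, and CHAD at 101.0 in CN, against 39.59 in NN, which is under 47.4. Sugar chain enzymes had 8 of 14 positive (median 0.09), with CHPF, which lengthens chondroitin chains, at 0.89 and B3GAT3 at −0.77, which had opposite signs. Growth factor genes had 10 of 13 positive (median 0.17), with CCN2 at 0.68 and the receptor TGFBR2 at 0.71, and TGFBR2 was at 0.16 without replicate 1 of SS CN T12 and 1.25 without replicate 2. Receptors had 3 of 5 positive (median 0.09), with MET at 0.27, and TLR4 at 21.87 in CN, under 47.4, against 92.71 in NN. Proteases and their inhibitors had 3 of 9 positive (median −0.06), with the inhibitor TIMP1 at 0.37, and ADAMTS4 at 18.61 in CN, under 47.4, against 49.36 in NN. Other proteoglycans had 5 of 12 positive (median −0.13), with ACAN at 0.93 and GPC3 at −0.36.

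**Figure D3:**
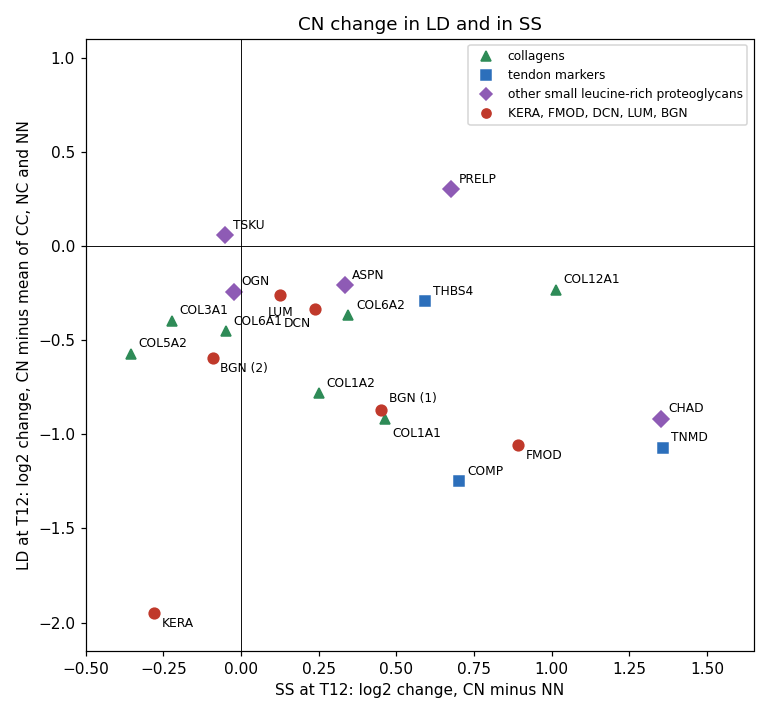
Log2 change in CN in LD at T12 (vertical axis, against CC, NC and NN) and in SS at T12 (horizontal axis, against NN) for the proteoglycan probe sets (circles), collagens (triangles), tendon markers (squares) and other members of the family (diamonds). FMOD lies at −1.06 in LD and 0.89 in SS, while KERA lies at −1.95 and −0.28. CHAD in LD, and KERA and COMP in LD of CN, were under 47.4, so their vertical positions are uncertain.

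The difference between the CN effects in LD and in SS was tested directly, and 0 probe sets passed (0% of all tested by limma, with 775 at an unadjusted p under 0.05). FMOD was at −1.95 ± 0.48 (interval −3 to −0.90, adjusted p = 0.534), rank 51 by p. KERA was at −1.67 ± 0.43 (adjusted p = 0.561) and DCN at −0.57 ± 0.21 (adjusted p = 0.885). The BGN probe sets were at −1.32 ± 0.49 and −0.51 ± 0.42, and LUM at −0.38 ± 0.62. All 6 were negative with a median of −0.95, against −0.06 over all tested. FMOD and DCN were below on every array in LD and above on every array in SS, 2 of 6 probe sets, as were 0.833% of all tested. In the same contrast TNMD was at −2.43 ± 0.87, COMP at −1.95 ± 0.76 and THBS4 at −0.89 ± 0.28, none passing. KERA and COMP were under 47.4 in LD of CN at T12, so the sizes of their values are uncertain.

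The muscles without the trait were compared to see how these genes vary with muscle type. KERA had 152.9 and 191.8 in SS of NN, against 187.6 and 214.5 in SM and 149.2 and 150.6 in ST, and FMOD had 534.1 and 443.5 in SS, against 564.2 and 402.1 in SM and 388.1 and 389.3 in ST. SS overlapped SM in both genes. The differences of SS from the mean of SM and ST were −0.02 ± 0.29 for KERA (interval −0.65 to 0.62) and 0.18 ± 0.32 for FMOD (interval −0.53 to 0.88). None of the 6 probe sets passed (adjusted p 0.573 to 0.991), where 0.999% of all probe sets did.

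SM and ST were set against LD of CC, NC and NN at T12, and all 6 probe sets were positive with a median of 0.27. LUM had the largest value, 0.61 ± 0.31, followed by the first BGN probe set at 0.48 ± 0.24, KERA at 0.31 ± 0.21 and FMOD at 0.24 ± 0.24. DCN was at 0.22 ± 0.10 and the second BGN probe set at 0.16 ± 0.21. None passed (adjusted p 0.699 to 0.931), and 0.0448% of all probe sets did. SS against LD gave 0.29 ± 0.27 for KERA and 0.42 ± 0.30 for FMOD, again with none of 6 passing (adjusted p 0.573 to 0.98), where 2.97% did. SS, SM and ST have 1 group value each in these comparisons.

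In LD over both ages no member passed in the maternal heterozygote or in the homozygote against wild type. NC against NN gave 0.23 ± 0.36 for KERA and 0.22 ± 0.27 for FMOD (interval −0.37 to 0.81), and none of 6 passed (adjusted p 0.995 to 0.997), where 0.0128% of all probe sets did. CC against NN gave 0.18 ± 0.36 for KERA and 0.26 ± 0.27 for FMOD (interval −0.32 to 0.85), and none of 6 passed (adjusted p 0.945 to 0.993), where again 0.0128% did. With age as a covariate the FMOD average for CC combines a T0 level below NN and a T12 level above NN.

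Likeness of pattern was measured as Pearson r over the 12 group values among 7481 symbols. The points share arrays and scaling, so r is a description. FMOD was most like TNMD (0.956), COL1A2 (0.938), COL12A1 (0.917), LIMA1 (0.915) and GALT (0.911). TNMD had a group value of 124.4 in LD of CN at T12, 974.7 in SS of CN, 379.7 in SS of NN and 1834 in LD of NC at T0, the group in which FMOD too was highest.

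**Figure D4:**
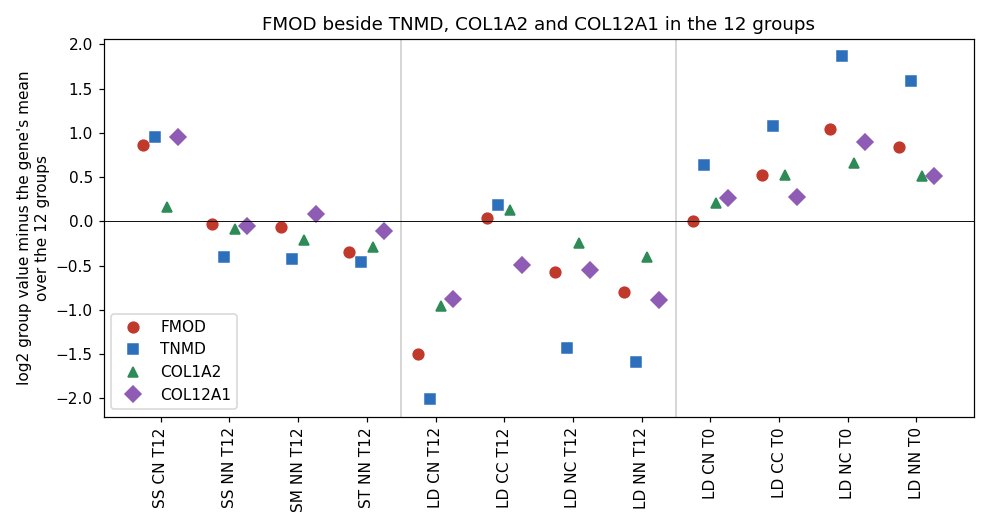
Log2 group value of FMOD, TNMD, COL1A2 and COL12A1 in each of the 12 groups, minus the mean of that gene over the groups (vertical axis). FMOD, TNMD and COL1A2 are lowest in LD of CN at T12 and highest in LD of NC at T0.

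KERA was most like ISLR (0.953), KLHL13 (0.943), SHMT2 (0.936), PPP1R1B (0.903) and MBOAT7 (0.898), for which Spearman's rho was 0.545 to 0.832. DCN was most like CYP2S1 (0.894), NEU1 (0.884), fibrillin FBN1 (0.858), RAB29 (0.843) and fibronectin FN1 (0.839). LUM was most like MMP16 (0.855), NEU1, RGS10, FOXN3 and SGCE. Differences between groups in LUM were not resolved by these arrays, so its likeness to any gene, the other members included, is uncertain. BGN was most like IGFBP4 (0.905), the collagen cross-linking enzyme LOXL1 (0.903), SERPINF1 (0.903), PDSS2 (0.901) and RPS28 (0.883). Here and between members BGN was read by its second probe set, the one of higher mean signal, which can share probes with other transcripts.

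Between members the highest r was that of KERA with BGN (0.851), followed by KERA with FMOD (0.793) and DCN with LUM (0.770), and the lowest was FMOD with LUM (0.469). By Spearman's rho the order differed, with DCN and LUM highest (0.832), then LUM and BGN (0.783) and KERA and BGN (0.776). KERA with FMOD had a rho of 0.65. All 5 genes were found in RefSeq's sheep annotation (assembly ARS-UI_Ramb_v3.0), where KERA, LUM and DCN are direct neighbours, with EPYC, a further member of the family, on the other side of KERA. FMOD lies beside BTG2 and BGN beside ATP2B3.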

How the data were processed

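RNA from 5 µg samples, per the labels, was read on 24 arrays in 12 groups of 2. The authors deposited 1 linear intensity for each probe set and array. The submitters' processing notes name MAS5 and no version. Each array has a 2% trimmed mean of 200.08 to 200.093, so the arrays share 1 scale, with medians of 47.4 to 59.7. The number of arrays limits the precision.

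Of 579072 values 4295 were below 1 and set to 1 before log2. The 2 technical arrays of a group were averaged. At most 0.141% of their values were identical. Of 24128 probe sets, 112 controls were left out, and those above the median log2 signal in at least 1 group, 15613, were tested. Gene names come from the platform annotation of 2016 (13318 probe sets with 1 symbol, 86 with several, 10724 with none).

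Tests used limma 3.58.1 in R 4.3.3 (lmFit and eBayes with intensity trend, two-sided, Benjamini-Hochberg over all tested probe sets, threshold 0.05) on 12 group values in 8 cells, where CC, NC and NN of LD at an age are 1 cell (4 residual degrees of freedom, prior 6.88). A cell that holds 1 group takes its spread from those cells. NC and CC against NN used the 8 LD groups with age as covariate (3 residual degrees of freedom, prior 7.18). The fits were also run on simulated data in which each probe set had the same spread in all groups. This simulation therefore cannot test whether cells that hold 1 group vary like the others. In the lists, a gene is read by its brightest tested probe set. The rule for named genes was all members, the called genes of each list (at most 6) or, with none called, the 2 of smallest p, and the 5 symbols most like each member. For list genes it is carried out for the pathway and tendon lists, and for called genes of the other marker lists, in CN against the other genotypes, in CN in SS and between ages. List genes of the remaining comparisons are not printed, apart from the tendon markers in LD minus SS. The members and the 17 lists were chosen with earlier results of these data known. Alternatives were quantile normalization, a signal floor of 16, no filter, no trend, other comparators and leaving out each array. A further alternative took single arrays with the group as block and the replicate number as covariate. No genome was used here, so no coordinates or sequences are given.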

Additional observations from a re-analysis of the deposited data

Results flagged for a closer look

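FMOD had a CN effect in LD minus the CN effect in SS at T12 of −1.95, with both CN arrays below all 6 others in LD and both above NN in SS. DCN had −0.57 with the same opposite directions on every array. The test of this difference did not pass for either (limma adjusted p = 0.534 for FMOD and 0.885 for DCN).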

How the results depend on the processing

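Of 50 values of member probe sets, tried 270 times under settings other than leaving out an array, 263 kept direction and side of the threshold. DCN between ages turned to 0.001 with quantile normalization, and LUM in CN in LD at T12 to 0.019 with CC given its own term. Without an intensity trend the KERA call at T12 (adjusted p = 0.117) and the FMOD call between ages (adjusted p = 0.0691) were lost. Dim signals, such as KERA in LD of CN at T12, and spread between paired arrays, as in LUM, limit what these arrays resolve.

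Counts of called probe sets depended more on the settings. With quantile normalization CN in LD had 11 calls at T12 and 7 at T0, against 28 and 27 as reported. A signal floor of 16 gave 66 at T0. Without the filter there were 11 in CN at T12 and 4 in CC against NN (2 as reported). Without an intensity trend limma called 0 in CN at T12, at T0, in SM and ST against LD, in NC and in CC, while it called 239 between ages (1831 as reported), 4 in SS against SM and ST (156) and 86 in SS against LD (463). With CC given its own term CN had 48 at T12 and 262 at T0. With LD of NN alone as comparator SM and ST had 2 (7) and SS 129.

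A further fit used all 24 arrays, with the group as a block and the replicate number as a covariate. The correlation within a block was 0.037 over the 12 groups and 0.104 in LD, so technical arrays were counted as nearly independent. The calls were 247 in CN at T12, 565 at T0, 2854 between ages, 146 in the interaction, 3 in SS, 513 in SS against SM and ST, 88 in SM and ST against LD, 1137 in SS against LD, 7 in NC and 44 in CC. Over all tested probe sets the deviations of same-numbered arrays had correlations of −0.073 to 0.097 over 66 pairs. This does not show whether single probe sets shared a batch. In LUM, replicate 2 was above replicate 1 in every LD group at T12 and in LD of NN at T0, and below it in all other groups. Whether the replicate number marks a batch was not tested. Under the block FMOD in CN passed at T12 (adjusted p = 0.0139) and T0 (0.0466), as did KERA between ages (0.0225).

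Without each array in turn, calls ranged over 1 to 419 in CN at T12, 3 to 271 at T0, 1216 to 1905 between ages, 0 to 44 in the interaction, 0 to 12 in SS, 0 to 4 in LD minus SS, 88 to 278 in SS against SM and ST, 4 to 23 in SM and ST against LD, 280 to 754 in SS against LD and 2 to 4 in CC. Signs turned for LUM in CN at T12 (−0.697 to 0.18), in the interaction (−0.218 to 0.76), in SS (−0.355 to 0.605) and in LD minus SS (−0.864 to 0.097), for the second BGN probe set at T0 (−1.029 to 0.018), for both BGN probe sets in the interaction (−0.684 to 0.546 and −0.615 to 0.433), for DCN between ages (−0.079 to 0.002) and for KERA in SS against SM and ST (−0.182 to 0.145). Among list genes they turned for ADAMTS5 at T12 (−2.236 to 0.166), COMP at T0 (−1.158 to 0.052), and MET (−0.025 to 0.559) and GPC3 (−0.719 to 0.001) in SS. The cause of these shifts was not tested.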
